A study of Mus musculus with 15 samples.

Results

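The 9 genes described here mark the B lineage, and their RNA was followed across 15 tumors of the mammary gland. The ErbB2KI mice that bore them develop tumors driven by Erbb2, the receptor known in human breast cancer as HER2. They were taken by name from the genes that the array's annotation gives: 5 genes of B cells before antibody secretion (Cd79a, Cd79b, Ms4a1, Cd22 and Pax5) and 4 genes whose RNA is abundant in plasma cells or their precursors (Pou2af1, Mzb1, Jchain and Tnfrsf17). Each of the 9 had exactly 1 transcript cluster (a set of probes for 1 gene) with its symbol alone, out of 22180 genes so named. The tumors carried wild-type Ctnnb1 (WT, Ctnnb1 wt/wt), 1 floxed allele (HET, Ctnnb1 fl/wt) or 2 floxed alleles (HOM, Ctnnb1 fl/fl), with 5 tumors in each group, all with the ErbB2KI allele. Ctnnb1 encodes beta-catenin, and its deletion was aimed at the mammary epithelium. The sources used here do not name the Cre line, the age of the mice or the deleted exons. RNA was taken from tumors frozen at end burden, so RNA from stroma and leukocytes was measured together with that of tumor cells.

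A mature B cell carries a membrane antibody bound to the heterodimer of Cd79a and Cd79b, which relays antigen binding into the cell. Pax5 is the transcription factor that maintains B cell identity and is switched off when the cell becomes a plasma cell. A plasma cell secretes antibody in bulk. It uses Mzb1, a chaperone of the endoplasmic reticulum, and the joining chain Jchain, which links antibodies into polymers. In the mammary gland, antibody-secreting cells supply milk with polymeric antibody. In bulk tissue a low level can mean fewer B cells or less RNA per cell, and these cannot be told apart.

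Values are log2 array values as deposited, where a difference of 1 is a doubling of signal, and are given per tumor or as mean ± SD (n = 5 tumors per genotype). The median of all transcript clusters on an array lay between 5.54 and 5.73, and the lower quartile between 4.13 and 4.31. A gene below the array median is close to the range of background. No detection call was analysed here, so small differences at that level are uncertain. Of the 9 genes, 7 lay above the array median on at least 5 arrays and were tested. Ms4a1 and Tnfrsf17 did so in HET 1 alone and are given as levels, with their values from a fit without that filter. Several tumors stood apart before any test. HET 1 had low epithelial markers and HET 3 high skeletal muscle markers. WT 5 and HOM 5 had Ctnnb1 levels of 11.21 and 12.01, against 11.71 to 12.10 in the other WT tumors and 11.15 to 11.58 in the other HOM tumors. The HET tumors lay between 11.22 and 11.66. The Ctnnb1 RNA of WT 5 and HOM 5 thus goes against their labels, but RNA levels alone do not show that a label is wrong. Nor did this RNA separate the genotypes. HET and HOM means differed from WT by -0.34 and -0.36, and HOM from HET by -0.02. None of these differences passed (limma, adjusted p under 0.05). Krt8, a luminal keratin, was between 11.64 and 12.60 in all 15 tumors. Erbb2 was 12.92 in HET 1, the highest of the 15, and 9.63 to 12.89 in the others. The mean of 11 epithelial markers, however, was 8.01 in HET 1 and 9.79 to 11.31 in the others. HET 1 thus matched its labelled tissue in Krt8 and Erbb2 but not in the epithelial mean. Among the 3 brightest of the 11 markers, only Krt8 lay within the range of the other tumors. Krt18 (11.08, against 11.13 to 12.48) and Epcam (9.31, against 11.38 to 12.31) were lowest in HET 1.

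The promoters of a pair of B cell genes and of a plasma cell gene are shown because these genes separate the tumors described next. The sequences are those of RefSeq on GRCm38.p6 and cover the 250 bases before the transcription start, 5′ to 3′ on the strand of the gene. Cd79a lies on the plus strand (chr7:24897247-24897496), Cd22 on the minus strand (chr7:30879029-30879278) and Jchain on the minus strand (chr5:88527898-88528147). Capitals mark matches, on either strand, to textbook motifs of B lineage factors: the EBF motif (early B cell factor; the palindrome in capitals nearer the start of Cd22, with any bases allowed at its middle pair), CAGGTG (an E-box of E2A), GAGGAA (PU.1) and ATGCAAAT (the octamer, to which Pou2af1 is recruited by its Oct partners).
Cd79a: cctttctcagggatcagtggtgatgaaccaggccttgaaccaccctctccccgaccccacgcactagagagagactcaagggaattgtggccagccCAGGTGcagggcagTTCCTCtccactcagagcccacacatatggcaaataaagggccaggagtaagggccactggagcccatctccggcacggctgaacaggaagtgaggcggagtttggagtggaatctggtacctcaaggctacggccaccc
Cd22: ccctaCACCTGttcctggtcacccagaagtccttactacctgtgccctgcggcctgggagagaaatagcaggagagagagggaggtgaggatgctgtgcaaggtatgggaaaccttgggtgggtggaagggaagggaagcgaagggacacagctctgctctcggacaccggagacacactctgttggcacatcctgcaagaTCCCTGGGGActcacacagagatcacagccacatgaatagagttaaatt
Jchain: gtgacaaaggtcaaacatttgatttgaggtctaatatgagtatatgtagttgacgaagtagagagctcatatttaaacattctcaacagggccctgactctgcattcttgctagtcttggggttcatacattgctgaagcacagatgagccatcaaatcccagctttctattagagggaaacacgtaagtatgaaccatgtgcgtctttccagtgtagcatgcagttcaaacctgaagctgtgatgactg
Cd79a holds 1 CAGGTG match and 1 GAGGAA match, which begin 154 and 140 bases before the start. Cd22 holds 1 CAGGTG match (245 bases before the start) and 1 EBF match (49 bases). No motif was matched in the 250 bases of Jchain. No capitals overlap between motifs. Over 32851 promoters of the same length, the EBF motif was matched in 0.779%, ATGCAAAT in 1.6%, CAGGTG in 17.2% and GAGGAA in 23.3%. Promoters of 6 of the 9 genes (Cd79a, Cd22, Pax5, Pou2af1, Jchain and Tnfrsf17) were used, and ATGCAAAT was matched in 0 of the 6. Of those not printed, Pax5 and Pou2af1 held no match and Tnfrsf17 held 1 GAGGAA match. Among these 6, CAGGTG and the EBF motif were matched only in B cell genes, and GAGGAA in a gene of each class. So few promoters cannot show whether the matches divide the B cell genes from the plasma cell genes. These matches describe the letters only.

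The 5 B cell genes were each highest in HET 1, and Cd79b and Cd22 also varied among the other tumors. Cd79a, the alpha chain of the receptor complex, was 5.94, 5.34, 6.45, 5.70 and 5.46 in WT 1 to WT 5. It was 10.1 in HET 1 and 5.54, 5.33, 5.44 and 5.58 in HET 2 to HET 5. In HOM 1 to HOM 5 it was 5.81, 5.41, 5.32, 6.13 and 5.56. HET 1 thus stood 4.55 above the median of the other 14 tumors, and those 14 spanned only 1.13. That median is at the level of the array medians, so no fold is given.

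Ms4a1, which encodes the surface protein CD20 of mature B cells, was 4.92, 4.20, 5.20, 3.95 and 4.52 in WT 1 to WT 5. It was 10.16 in HET 1 and between 4.27 and 4.45 in HET 2 to HET 5, and between 4.34 and 4.82 in the HOM tumors. HET 1 stood 5.72 above the median of the other 14 tumors. All 14 of those values lay below the array medians, so no fold is given here either. Cd22, an inhibitory co-receptor of the B cell receptor, was 9.51 in HET 1. Its next highest values were 7.47 in HET 4 and 7.29 in HOM 4, and the other 12 tumors lay between 5.83 and 6.85. Pax5 reached 7.15 in HET 1, with 5.39 to 6.02 in the remaining 14 tumors, so its elevation was smaller (1.51 above their median).

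Cd79b, the beta chain of the complex, did not follow Cd79a in every tumor. It was 6.96, 6.24, 7.38, 6.46 and 6.35 in WT 1 to WT 5 and 6.58, 6.26, 6.10, 6.85 and 6.78 in HOM 1 to HOM 5. In HET 1 to HET 5 it was 10.90, 6.96, 6.62, 7.32 and 8.20. HET 5, the second highest, had Cd79a at 5.58 and Ms4a1 at 4.45, both within the range of the other tumors. A few other genes of the lists described below were also high in HET 5, and they are named after their values were seen. Spib, a transcription factor of B and plasmacytoid dendritic cells, was 10.57 in HET 5, above the 8.46 of HET 1, and at most 5.74 in the other 13 tumors. Cr2, the complement receptor of mature B cells and follicular dendritic cells, was 8.62 in HET 5, 8.96 in HET 1 and at most 4.43 elsewhere. Madcam1 is a vessel-wall ligand for homing lymphocytes, from the list of lymph node stroma and high endothelium. It was 8.64 in HET 5 and at most 6.15 in the other 14 tumors, HET 1 included (6.10). HET 5 thus shared Cd79b, Spib and Cr2 with HET 1 without Cd79a, Ms4a1 or Cd22 (5.83). Further genes of these lists, also named after their values were seen, went both ways in HET 5. Mybl1 (8.85) was the highest of the 15 tumors there. Tnfrsf13c (7.47) and Fcer2a (5.55, near the array medians) were second only to HET 1 (8.48 and 8.21). Ebf1 (6.01) and Bcl11a (5.61) were the lowest of the 15 tumors there, and Bank1 (5.97) and Fcrla (5.35) lay within the range of the others.

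**Figure D1:**
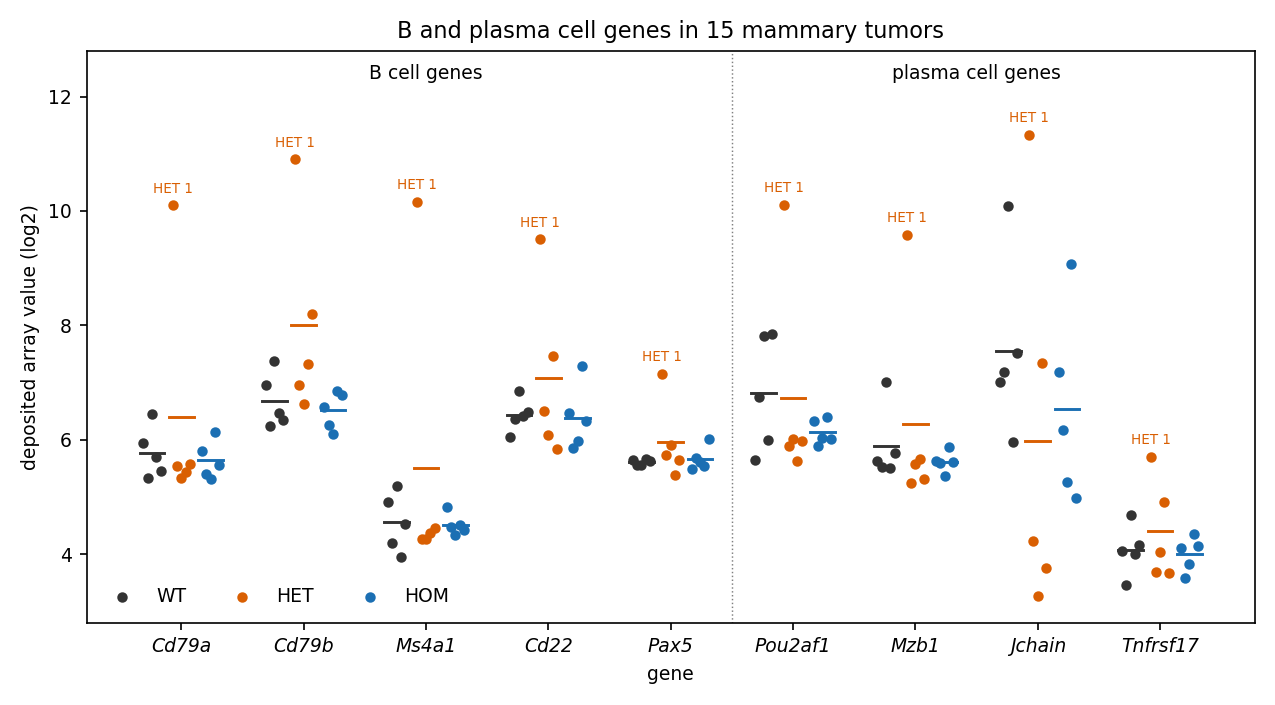
Deposited log2 array values (vertical axis) of the 5 B cell genes and 4 plasma cell genes (horizontal axis) in each of 15 tumors; points are tumors, coloured by genotype, and bars are genotype means (n = 5). HET 1 is the highest tumor for all 9 genes, and Jchain spreads over 6.82 among the other 14.

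The plasma cell genes were also highest in HET 1 but varied more among the other tumors. Jchain was 7.02, 7.19, 10.09, 5.96 and 7.51 in WT 1 to WT 5. It was 11.33, 4.22, 3.27, 7.35 and 3.76 in HET 1 to HET 5, and 7.18, 6.18, 5.27, 9.08 and 4.98 in HOM 1 to HOM 5. Without HET 1 it still spanned 6.82, from HET 3 to WT 3. WT 3 and HOM 4 were the highest of the 14 remaining tumors, and HET 2, HET 3 and HET 5 the lowest, below the array medians.

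Mzb1 separated fewer tumors. It was 9.59 in HET 1 and 7.02 in WT 3, and the other 13 tumors lay between 5.25 and 5.88, near the array medians. Pou2af1, a coactivator of octamer-dependent transcription in B cells and plasma cells, was 5.64, 6.74, 7.82, 6.0 and 7.84 in WT 1 to WT 5. It was 10.11 in HET 1, between 5.62 and 6.02 in HET 2 to HET 5, and between 5.90 and 6.40 in the HOM tumors. WT 5 was therefore as high as WT 3 in Pou2af1 but had Mzb1 at 5.77. Tnfrsf17, the receptor BCMA that sustains long-lived plasma cells, was 5.70 in HET 1, 4.91 in HET 4 and 4.68 in WT 3, and between 3.46 and 4.36 in the other 12 tumors. Apart from HET 1 its values lay below the array medians.

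HET 1 was the highest of the 15 tumors for all 9 genes, and for 9.88% of the 22180 named genes. It lay at least 1 above each other tumor for 8 of the 9 (5 of 5 B cell genes and 3 of 4 plasma cell genes), against 1.21% of the named genes. The genes were chosen with such results known, so these counts describe HET 1 and test nothing. The mean of the 5 B cell genes reached 9.56 in HET 1 and stayed between 5.47 and 6.29 elsewhere. The mean of the 4 plasma cell genes was 9.18 in HET 1, 7.40 in WT 3, 6.43 in HOM 4, 6.32 in WT 5 and 4.68 to 5.88 in the others. By this mean, HET 2, HET 3 and HET 5 were the lowest of the 15 tumors, between 4.68 and 4.76.

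**Figure D2:**
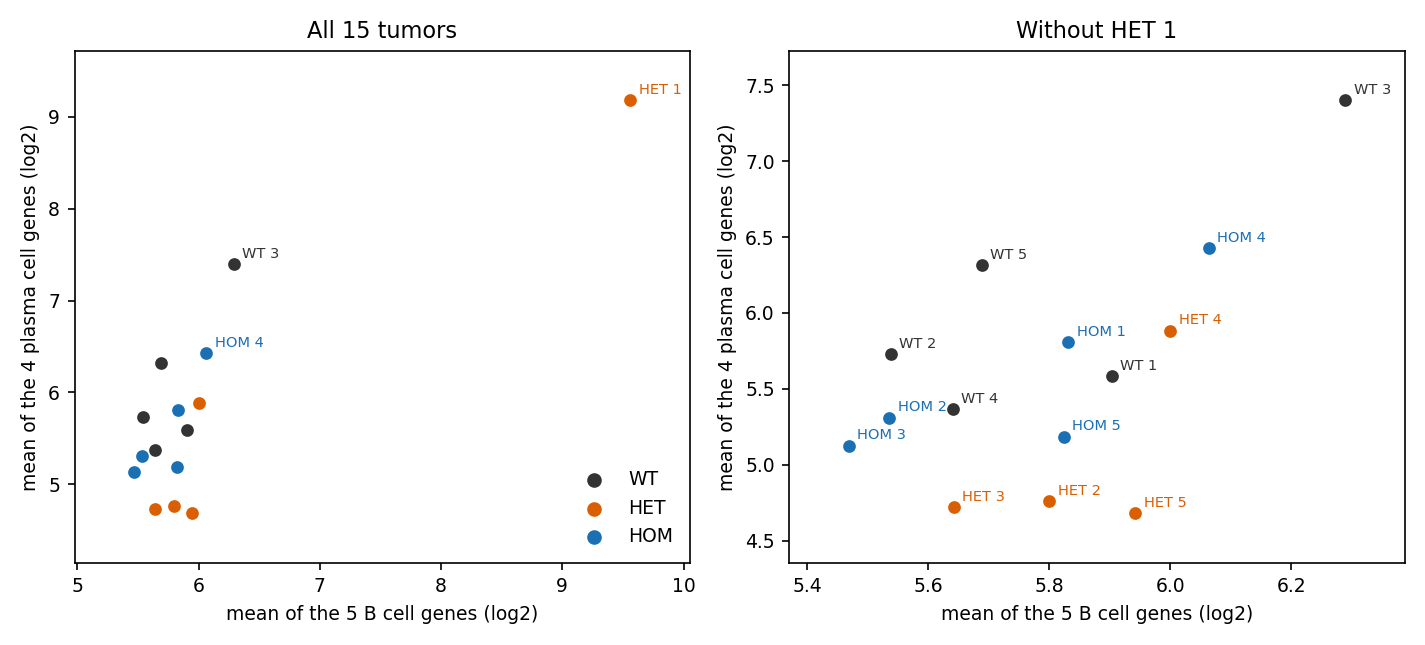
Mean log2 value of the 5 B cell genes (horizontal axis) against that of the 4 plasma cell genes (vertical axis), a point per tumor coloured by genotype, with all 15 tumors on the left and without HET 1 on the right. Without HET 1 the B cell mean spans 5.47 to 6.29 and the plasma cell mean 4.68 to 7.40, with WT 3 highest in both.

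Because HET 1 stood apart, relations between the genes were taken over the other 14 tumors. Among the plasma cell genes, Mzb1 with Tnfrsf17 and Mzb1 with Jchain had Spearman correlations of 0.82 each (Pearson 0.62 and 0.75). The median over the 6 pairs of plasma cell genes was 0.52, over the 10 pairs of B cell genes 0.18, and over the 20 mixed pairs 0.33. Among B cell genes, Cd79a with Ms4a1 and Cd79a with Cd79b reached 0.60 each, whereas Cd22 with Pax5 was at -0.50. These are descriptions over tumors that share arrays of 1 platform, and many of the B cell values lie near background. For Cd79a with Jchain, the pair fixed for a test, Pearson's r was 0.69 (two-sided permutation test with 100000 resamples, p = 0.00643, n = 14) and Spearman's rho 0.42 (permutation p = 0.137). Without WT 3 and HOM 4, the tumors farthest from the median of Cd79a, r was 0.25 (permutation p = 0.439, n = 12) and rho 0.08 (permutation p = 0.816), so the relation rests on those tumors.

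Most clusters of antibody genes were also highest in HET 1. The array held 32 clusters with a symbol of an immunoglobulin heavy or light chain gene alone, among them the surrogate light chain gene Igll1. Of the 32, 28 were highest in HET 1, against 9.88% of the 22180 named genes. Among the other 14 tumors, 26 of the 32 were highest in WT 3 and 3 in HOM 4. WT 3 or HOM 4 was the highest of these 14 for 4 of the 9 genes and for 10.7% of the named genes. For each of the 4 (Cd79a, Ms4a1, Mzb1 and Jchain) that tumor was WT 3, not HOM 4. Several clusters share a symbol, so the 32 are not separate genes. The brightest cluster for Ighm, the constant region of IgM, was 12.77 in HET 1, 11.81 in WT 3, 10.47 in HOM 4 and 7.37 to 9.19 in the other 12 tumors. Named after its values were seen, the brightest for Ighg3, an IgG constant region, was 10.08 in HET 1, 9.75 in WT 3, 9.29 in HOM 4, 8.30 in WT 2, 8.29 in WT 5 and 7.98 in HOM 1. The other 9 tumors lay between 4.89 and 6.52. Igkj1, a joining segment of the kappa light chain, was 11.47 in HET 1, 10.46 in HOM 4, 9.86 in WT 3 and 8.85 in HET 4. Probes of such genes can hybridise to related copies, so the segment named by a cluster is uncertain. Igll1 and Vpreb1, which serve B cell precursors and were likewise named after their values were seen, lay in HET 1 within or below the range of the other tumors (4.44 and 3.48, against 4.22 to 4.80 and 3.84 to 4.45 in the other tumors).

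The comparison of HET with WT asked whether tumors with 1 floxed allele differ in these genes. Of the 7 genes tested, 0 passed, and of all 14243 genes tested 2 did, or 0.014% (limma, adjusted p under 0.05). The 4 tested B cell genes all had the greater mean in HET. For Cd79b they were 8.0 ± 1.73 in HET and 6.68 ± 0.48 in WT, a difference of 1.32 (95% interval -0.000741 to 2.64, adjusted p = 0.374). For Cd79a the difference was 0.62 (-0.93 to 2.17, adjusted p = 0.724), for Cd22 it was 0.65 (adjusted p = 0.614) and for Pax5 0.35 (adjusted p = 0.546). These differences shrank or turned without HET 1. Leaving it out, Cd79a differed by -0.30, Cd79b by 0.59, Cd22 by 0.04 and Pax5 by 0.06 (adjusted p = 0.598, 0.496, 0.973 and 0.887). Ms4a1, which was not tested, was 5.51 ± 2.60 in HET and 4.56 ± 0.51 in WT, and the difference of 0.95 was -0.21 without HET 1.

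The 3 tested plasma cell genes all had the smaller mean in HET once HET 1 was left out. So did Cd79a and Ms4a1 among the B cell genes. HET 1 was the highest tumor in each of these genes, so leaving it out had to lower the HET means. The fit without it describes the remaining tumors and is no separate test. Jchain was 5.98 ± 3.39 in HET and 7.55 ± 1.53 in WT, a difference of -1.57 (95% interval -4.50 to 1.36, adjusted p = 0.627). Without HET 1 the difference was -2.90 (-5.11 to -0.70, adjusted p = 0.381), and 3 of the 4 remaining HET tumors lay below every WT tumor. With HET 1 kept and WT 3, the highest WT tumor in Jchain, left out, the difference was -0.93. Pou2af1 differed by -0.09 (adjusted p = 0.970), and by -0.93 without HET 1 (adjusted p = 0.425). Mzb1 differed by 0.39 (adjusted p = 0.820) and by -0.44 without HET 1 (adjusted p = 0.540). Tnfrsf17, not tested, averaged 4.40 ± 0.88 over HET tumors and 4.07 ± 0.43 over WT tumors, and the difference of 0.33 was 0.0085 without HET 1. Without HET 1, 0 of the 7 tested genes passed and 1 of 14180 genes did (0.00705%). Of the 7, 0 had HET 2 to HET 5 all below the 5 WT tumors and 0 had them all above, against 1.52% and 1.05% of all genes tested. None of these differences exceeded the spread between tumors after adjustment, and the intervals do not show that the groups are alike.

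HOM tumors were even in some of these genes, with SDs of 0.18 for Ms4a1, 0.18 for Mzb1 and 0.22 for Pou2af1. HET 2 to HET 5 were similarly even in them (0.09, 0.20 and 0.18). In HOM, Ms4a1 lay below the array medians and Mzb1 near them. For Cd22, Pax5 and Jchain the SDs were larger in HOM (0.56, 0.21 and 1.66) than in WT (0.29, 0.05 and 1.53). Of the 7 genes tested against WT, 0 passed, as did 0 of 14243 genes (0%; 242 genes had an unadjusted limma p under 0.05). For Jchain the means were 6.54 ± 1.66 (HOM) and 7.55 ± 1.53 (WT), which differed by -1.02 (95% interval -3.95 to 1.92). For Pou2af1 they were 6.13 ± 0.22 (HOM) and 6.81 ± 1.01 (WT), which differed by -0.68 (-2.24 to 0.89). The differences for Cd79a, Cd79b, Cd22, Pax5 and Mzb1 lay between -0.28 and 0.05. All 7 adjusted p-values of this limma fit rounded to 1. WT 3 weighed on these values: without it, Jchain differed by -0.38 and Mzb1 by 0.0064 instead of -0.28.

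Between HOM and HET, likewise, 0 of the 7 tested genes and 0 of 14243 genes passed (0%, with 1129 genes at an unadjusted limma p under 0.05). This comparison shares the HET tumors with the first. The lowest p was that of Cd79b, with means of 6.51 ± 0.33 in HOM and 8.0 ± 1.73 in HET, a difference of -1.48 (95% interval -2.80 to -0.16, adjusted p = 0.589). It was -0.76 without HET 1 (adjusted p = 0.845). Jchain differed by 0.55 (-2.38 to 3.48, adjusted p = 0.932) and by 1.89 without HET 1 (adjusted p = 0.845).

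**Figure D3:**
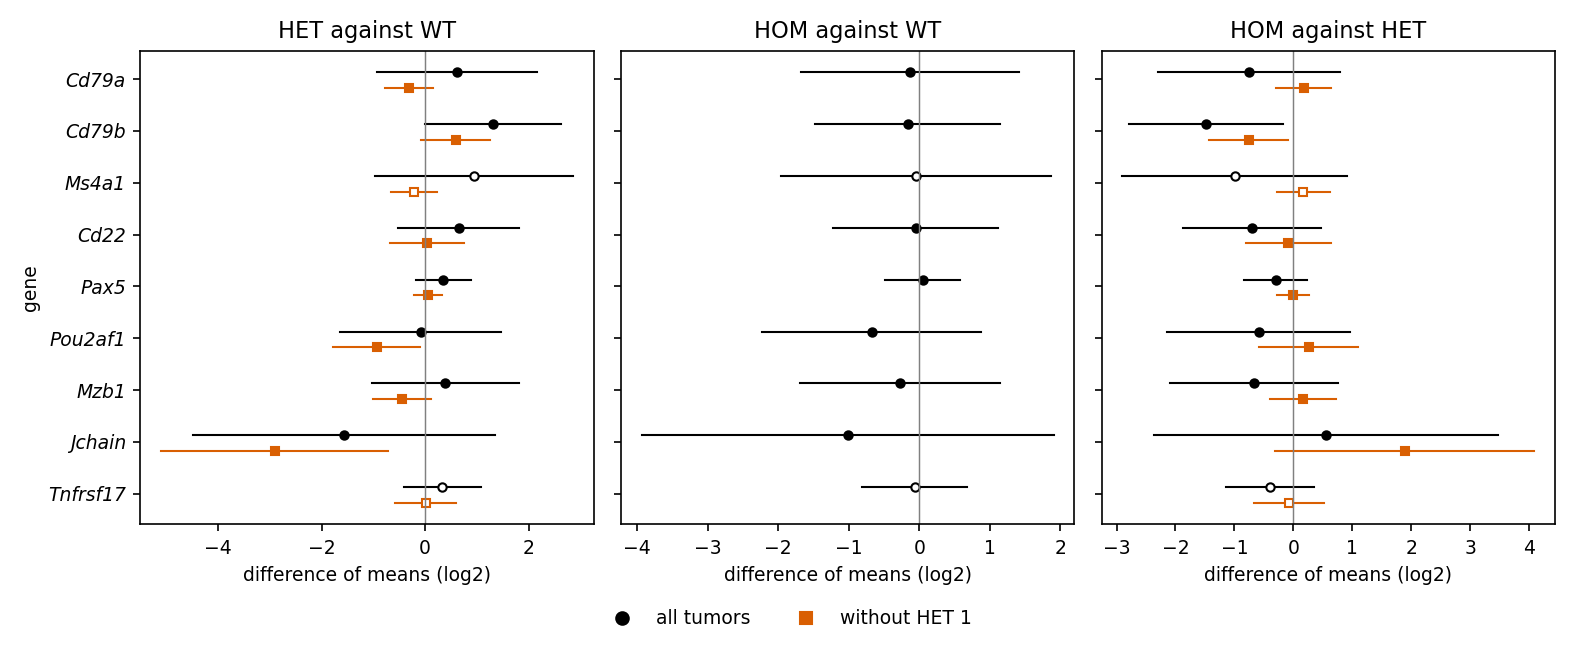
Difference between genotype means (log2, horizontal axis) with its 95% interval from the limma fit without the filter on low values, for each gene (vertical axis) and comparison; black circles use all tumors, orange squares leave out HET 1 (drawn for the comparisons that involve HET), and open symbols mark genes below the filter. Leaving out HET 1 narrows the intervals, and moves Jchain from -1.57 to -2.90 for HET against WT.

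Other B lineage genes were taken from lists chosen by function. In the list of B cell receptor signalling and surface genes, 12 of 16 genes had a cluster of their own, and 10 of the 12 were highest in HET 1. The brightest genes of the list were Plcg2, Blnk and Cd37. Plcg2 and Blnk, which carry the receptor signal, were 9.17 and 8.76 in HET 1 and within the range of the other tumors (8.88 to 9.92 and 7.62 to 9.77). Cd37, a tetraspanin of mature B cells, was 9.66 in HET 1 and 6.74 to 8.89 elsewhere. Of the 8 tested genes of this list, 0 passed in any comparison. Their median difference was 0.59 for HET against WT, beside -0.03 over all genes tested, and 0.29 without HET 1 (7 tested).

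Among B cell transcription factors, 3 of 9 genes were highest in HET 1. The brightest were Irf8 (9.46 in HET 1 and 6.97 to 9.05 elsewhere), Bcl11a (7.42 against 5.61 to 9.43) and Ebf1 (8.60 against 6.01 to 10.13). Bcl11a and Ebf1 are also expressed in mammary epithelium and in stroma, and their highest values were in other tumors. In the germinal centre list, where B cells mutate their antibody genes, 4 of 6 genes were highest in HET 1. Its brightest genes S1pr2, Bcl6 and Mybl1 were 10.00, 9.44 and 8.63 there, and 9.14 to 9.86, 8.86 to 9.81 and 6.26 to 8.85 elsewhere. Named after their values were seen, Rgs13 was 8.31 in HET 1 and 2.92 to 3.50 elsewhere, and Gcsam 7.79 and 4.67 to 5.76. Both are germinal centre B cell genes, and in WT 3 and HOM 4 they were 3.03 and 2.95 (Rgs13) and 5.26 and 5.76 (Gcsam). In both lists 0 tested genes passed in any comparison.

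Genes of plasma cell differentiation and secretion were less uniform, with 5 of 12 highest in HET 1. The brightest of the 12, Xbp1, Herpud1 and Sdc1, act in secretion or on the cell surface in epithelium as well. They were 11.96, 10.20 and 9.87 in HET 1 and within the range of the other tumors. None of the 10 tested genes passed in any comparison, and their median difference was 0.03 for HET against WT, beside -0.03 over all genes tested. Without HET 1 it was -0.40 (6 of 9 tested genes lower, 0 passing). In the immunoglobulin list, 5 of 9 measured genes were tested, all 5 had lower means in HET than in WT, and 0 passed. Their median difference was -0.48, and -1.44 without HET 1, beside -0.03 over all genes in both fits. Its brightest genes besides Ighm and Igkj1 included Pigr, the epithelial receptor that carries polymeric antibody into milk. Pigr was 10.00 in WT 3, 9.92 in WT 1 and 9.30 in HOM 3, and 7.72 in HET 1.

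Signals that attract and sustain B cells were measured through 13 genes, of which 6 were highest in HET 1. Cxcl13, the chemokine that draws B cells into follicles, was 12.17 in HET 1, 10.42 in HOM 4 and 5.77 to 9.28 in the other 13 tumors, with the lowest value in HET 5. Cxcr4 and Cxcl12, a receptor and ligand pair that retains plasma cells, were 9.64 and 9.30 in HET 1 and 8.75 to 10.58 and 6.80 to 10.51 elsewhere. In the list of lymph node stroma and high endothelium, 4 of 9 genes were highest in HET 1. Glycam1, made by high endothelial venules and by milk-secreting epithelium, was 11.98 in HET 1, 13.49 in WT 1 and 12.32 in HOM 4. Clu and Chst2 were 9.68 and 7.69 in HET 1 and 9.22 to 10.99 and 7.25 to 9.49 elsewhere. Named after their values were seen, Chst4, a sulfotransferase of high endothelial venules, was 7.09 in HET 1 and 4.31 to 5.01 elsewhere, and Stab2 was 6.58 against 4.63 to 4.90. Of the 9 and 5 tested genes of these lists, 0 passed in any comparison.

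Of the markers of other cells, the T and NK cell, pan-leukocyte and neutrophil means were also highest in HET 1. The mean over T and NK cell markers was 7.18 there and ranged from 5.16 to 6.77 elsewhere, with WT 3 and HOM 4 next at 6.77 and 6.71, and 8 of 15 were highest in HET 1. Cd3e, Nkg7 and Cd3g were 9.48, 8.77 and 9.73 in HET 1, 9.05, 9.12 and 9.47 in WT 3, and 9.40, 8.89 and 9.10 in HOM 4. In the other 12 tumors Cd3e lay between 5.68 and 8.01. The pan-leukocyte mean was 10.27, against 8.47 to 9.89 elsewhere. The neutrophil mean was 10.82, against 6.13 to 10.77, with HET 2 close behind HET 1. The macrophage mean, 10.15, lay within the range of the other tumors (8.33 to 10.46), as did the plasmacytoid dendritic cell mean (7.10, against 5.87 to 7.39) and the fibroblast mean (9.75, against 6.53 to 11.47). The epithelial mean of HET 1 was 8.01, against 9.79 to 11.31 elsewhere, and 0 of 11 were highest in HET 1. Epcam was 9.31 against 11.38 to 12.31 and Krt18 11.08 against 11.13 to 12.48, whereas Krt8 was 12.04 against 11.64 to 12.60. The part of these cells in the level of the B lineage genes was not tested.

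**Figure D4:**
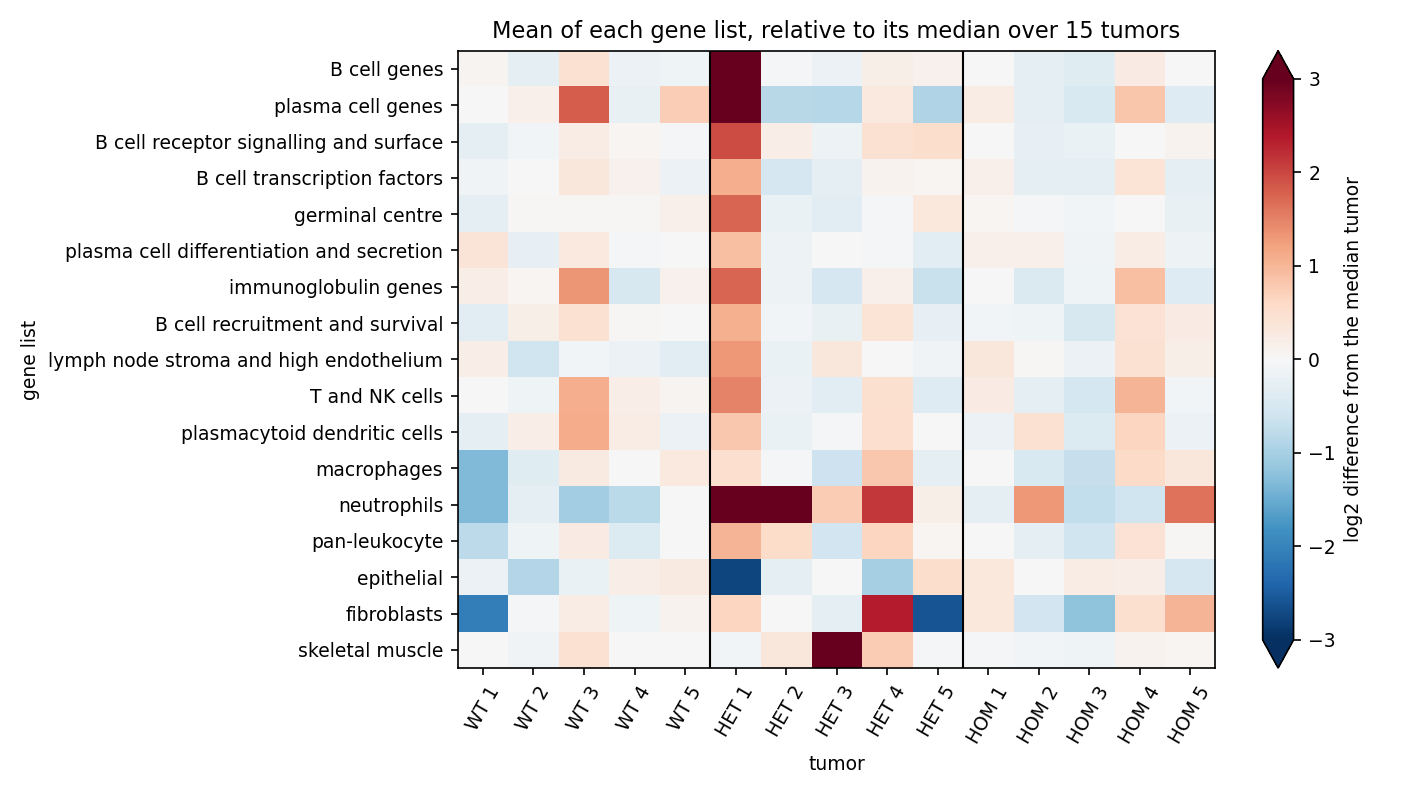
Mean of each gene list in each tumor (columns, grouped by genotype) minus the median of that mean over the 15 tumors (log2, colour scale from -3 to 3, with values beyond it in the end colours). HET 1 is high in all B lineage lists and low in epithelial markers, and WT 3 and HOM 4 are raised in plasma cell, immunoglobulin and T and NK cell lists.

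The genes whose pattern over the 15 tumors was most like that of the 9 genes were ranked by Spearman correlation among 22171 other named genes. Closest to the mean of the B cell genes were Zap70 (rho 0.93), a kinase of T and NK cells, then Naip6, Nceh1, Gimap3 and Cyp2u1 (rho 0.86 to 0.90). The range of the closest was narrow: Zap70 was 6.55 in HET 1 and 5.54 at its lowest. Closest to the mean of the plasma cell genes were Cd3g (rho 0.95), a chain of the T cell receptor complex, and 4 immunoglobulin genes, among them Ighm and Igh-VS107 (rho 0.92 to 0.95). Without HET 1 the Pearson correlations of these 5 with the plasma cell mean were 0.91 to 0.94. The correlations are descriptions over 15 tumors.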

How the data were processed

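Per the labels' protocols, total RNA of each of 15 tumors was turned into sense-strand DNA, biotin-labelled and measured on 1 Affymetrix array. The tools were Affymetrix Expression Console and Transcriptome Analysis Console, per the submitters' processing notes. No source used here gives a version, a background correction or a normalization. The authors deposited log2 values for 41345 transcript clusters, and the log2 scale was inferred from their range. Of these clusters, 23521 carried exactly 1 gene symbol in the platform annotation and 1814 several, which named no gene. The brightest cluster per gene (mean over 15 arrays) was kept, giving 22180 genes, of which 14243 lay above the array median on at least 5 arrays. These were fitted over all 3 genotypes in R 4.3.3 with limma 3.58.1 (two-sided moderated test), with Benjamini-Hochberg adjustment over all genes tested and a threshold of 0.05. Adjusted p-values in the text are from this fit. The code was tested on simulated data. Means over genes of a list include all measured genes. The labels give no batch and no pairing and do not say whether the tumors are from different mice, so the p-values reflect only how these tumors vary, which may be technical.

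Besides the 9 genes, the text names up to 3 genes with the highest mean of each list, the 5 genes most like each class, and genes said to be chosen after their values were seen. The 9 genes and the lists were chosen with earlier results of these data known. The number of arrays limits the precision. Further settings were 2 other filters, 2 normalizations, the mean of a gene's clusters, trend and robust moderation, array weights, fits of 2 genotypes and leaving out each tumor; leaving out WT 5 with HOM 5 was added after the data were seen.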

Additional observations from a re-analysis of the deposited data

Results flagged for a closer look

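In a group of 5 tumors, a tumor is listed here when its gap to the nearest other tumor exceeded 0.71 of the group's range (Dixon's criterion), which chance gives in about 1 of 20 groups. Among 78 groups of values for the 9 genes and the gene lists, 13 met it, 7 of them in HET 1. In HET 1 these were Cd79a (10.1, against 5.33 to 5.58 in the other HET tumors), Ms4a1 (10.16, against 4.27 to 4.45), Pou2af1 (10.11, against 5.62 to 6.02) and Mzb1 (9.59, against 5.25 to 5.66). The means of the B cell genes (9.56, against 5.64 to 6.0), of the plasma cell genes (9.18, against 4.68 to 5.88) and of plasma cell differentiation and secretion genes (8.77, against 7.54 to 7.88) were listed for HET 1 as well. In WT 3, Mzb1 was 7.02, against 5.51 to 5.77 in the other WT tumors, the T and NK cell mean 6.77, against 5.56 to 5.89, and the skeletal muscle mean 6.12, against 5.57 to 5.68. WT 1 had the lowest WT means of germinal centre genes (6.65, against 6.96 to 7.09) and of fibroblast markers (7.04, against 8.99 to 9.33). HET 3 had a skeletal muscle mean of 11.33, against 5.59 to 6.44. Cd79b, Cd22, Pax5, Jchain and Tnfrsf17 did not meet the criterion in HET 1, since another HET tumor lay partway.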

How the results depend on the processing

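No tested gene of the 9 passed the threshold in any comparison under any setting run. With a filter at the 75th percentile 0 of the 9 were tested, so none could pass in that setting. Over these settings the lowest adjusted p was 0.204 for HET against WT and 0.266 for HOM against HET (Cd79b without HET 3 in both) and rounded to 1 for HOM against WT. The count of all genes called for HET against WT was 2. It was 0 with a filter at the 75th percentile or with array weights, 1 with renewed quantile normalization or with the 2 genotypes alone, and 1 to 49 with 1 tumor left out (49 without HET 3, 18 without HET 5). For HOM against WT it was 0 with each tumor left out, and 2 without WT 5 and HOM 5. For HOM against HET it was 0 to 3 with 1 tumor left out (3 without HET 5) and 4 without WT 5 and HOM 5. The causes were not tested. Directions turned for uncalled genes. With array weights, HOM differed from WT by 0.0302 for Cd79a, 0.0667 for Cd22 and -0.0146 for Pax5. Without WT 5 and HOM 5, Pou2af1 differed by 0.17 for HET against WT and Pax5 by -0.0312 for HOM against WT. With 1 tumor left out, differences of HET from WT ranged from -0.30 to 0.89 for Cd79a, -0.93 to 0.19 for Pou2af1 and -0.44 to 0.67 for Mzb1. Those of HOM from WT ranged from -0.25 to 0.0367 for Cd79a, -0.28 to 0.0105 for Cd79b, -0.27 to 0.0847 for Cd22, -0.0361 to 0.0979 for Pax5 and -0.37 to 0.0064 for Mzb1. Those of HOM from HET ranged from -1.02 to 0.17 for Cd79a, -0.86 to 0.26 for Pou2af1, -0.92 to 0.16 for Mzb1 and -0.13 to 1.89 for Jchain. The correlation of Cd79a with Jchain was 0.25 without the 2 tumors farthest from the median of Cd79a, instead of 0.69. No paired analysis was run because the labels give no pairing of tumors. Values near the array median carry little signal over background, so absence of B cells cannot be read from them.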
